A study of Mus musculus with 3 samples.

Results

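The fibrillar collagen genes described here are 10 named genes of the mouse table, Col1a1, Col1a2, Col3a1, Col5a1, Col5a2, Col5a3, Col11a1, Col11a2, Col24a1 and Col27a1, out of 56833 genes in all. All 10 were present in the table, 7 averaged at least 50 normalized counts over the 3 libraries, and 3 (Col11a2, Col24a1 and Col27a1) did not. Each of the 7 had a value above 50 in every library. Cells carrying an Efhd1CreER allele and the Ai9 reporter, which switches on tdTomato in cells where Cre has acted, were sorted for tdTomato from ankle synovium and are called telocytes, an interstitial cell type, by the labels. The culture lasted 24 h, on plates coated with collagen with a stiffness of 0.2 kPa (called soft here), 8 kPa (intermediate) or 64 kPa (stiff), and the study asked how stiffness bears on their differentiation into fibroblasts. All 3 groups share the genotype, the sort and the coating. The marked cells are those in which the Efhd1 driver was active, at a time and in a number of animals that are not given in the sources used here. Each level had 1 library, so no difference has a replicate check, no p-value is given, and culture and stiffness cannot be told apart.

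Fibrillar collagens are secreted as procollagens whose chains wind into a long triple helix, in which glycine recurs in every Gly-X-Y triplet because only glycine fits at the centre. Type I, the main collagen of tendon, bone and fibrous synovium, joins a pair of α1(I) chains with an α2(I) chain. Type III is a homotrimer of Col3a1 product that mixes into type I fibrils in pliable tissue. Types V and XI are minor collagens that start fibrils and limit their width, and their chains can mix in one molecule. Types XXIV and XXVII form a separate, more distant branch of the family.

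The repeat can be read from the coding sequence, where a codon beginning with GG encodes glycine. In the canonical GENCODE vM39 transcripts the longest uninterrupted run of such codons at every triplet was 338 triplets in Col1a1, Col5a1, Col11a1 and Col11a2, 339 in Col1a2 and Col5a2, 344 in Col3a1 and 337 in Col5a3. It was 216 in Col24a1 and 217 in Col27a1. The first 90 coding bases of that run are shown for the 5 most abundant genes, because the repeat forms the triple helix that these chains share, with the glycine codon that opens each triplet in capitals. Further glycine codons inside a triplet stay in lower case.
Col1a1: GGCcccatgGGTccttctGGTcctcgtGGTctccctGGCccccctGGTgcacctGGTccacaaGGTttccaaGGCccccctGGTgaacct
Col1a2: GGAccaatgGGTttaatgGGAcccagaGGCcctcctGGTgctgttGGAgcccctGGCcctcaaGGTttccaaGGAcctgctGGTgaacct
Col3a1: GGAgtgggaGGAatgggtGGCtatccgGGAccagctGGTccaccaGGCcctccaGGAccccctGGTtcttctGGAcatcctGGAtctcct
Col5a1: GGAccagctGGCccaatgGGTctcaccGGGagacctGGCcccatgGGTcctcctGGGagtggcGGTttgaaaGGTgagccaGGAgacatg
Col5a2: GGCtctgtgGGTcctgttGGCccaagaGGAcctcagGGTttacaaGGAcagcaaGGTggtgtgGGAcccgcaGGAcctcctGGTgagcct
These stretches span, in GRCm39 and with their introns, chr11:94830277-94830765 (plus strand) for Col1a1, chr6:4512406-4515516 (plus) for Col1a2, chr1:45362922-45364573 (plus) for Col3a1, chr2:27854092-27855307 (plus) for Col5a1 and chr1:45461564-45466156 (minus) for Col5a2. Although the repeat is shared, no stretch of 50 bases in the canonical transcript of any of the 10 genes occurred in that of another. Codon choice differed: 55.9% of the opening glycine codons in the Col1a1 run were GGT, against 28.1% in Col5a1 and 25.2% in Col5a3.

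The promoters differed as well, and are shown for the genes with the largest and the smallest stiff to soft ratio, as deposited, among the 7. RefSeq promoter sequences (GRCm38.p6) were matched for 8 of the 10 genes, Col1a1 and Col5a2 having no entry, and each of the 8 was found once, letter for letter, beside its gene in GRCm39. Capitals mark a TATA-like motif (TATAA) or a GC box (GGGCGG), searched on both strands. Over 27025 promoters, a GC box was found in 21.6% in the same window as the 110 bases shown for Col5a1. The TATA-like motif was found in 14.7% in the same window as the 150 bases shown for Col3a1. The letters end at the base before the more upstream of the RefSeq and canonical starts, in GRCm39 at chr2:27776287-27776396 for Col5a1 and chr1:45350548-45350697 for Col3a1, both on the plus strand.
Col5a1: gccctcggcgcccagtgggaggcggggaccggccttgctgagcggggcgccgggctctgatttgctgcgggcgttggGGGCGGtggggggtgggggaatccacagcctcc
Col3a1: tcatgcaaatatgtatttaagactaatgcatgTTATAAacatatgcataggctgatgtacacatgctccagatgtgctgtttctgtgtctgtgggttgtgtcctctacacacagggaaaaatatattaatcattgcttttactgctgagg
The Col5a1 stretch has a GC content of 76% and holds a GC box, and the Col3a1 stretch has a GC content of 37% and holds the TATA-like motif on both strands at overlapping letters. A match describes the letters and is not evidence that a factor binds.

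The libraries held 25487064 (soft), 28081600 (intermediate) and 26474862 (stiff) reads. The normalized counts are the deposited values, and a log2 ratio is computed after adding 1 to each. Its interval is an exact 95% Clopper-Pearson interval of the reads, which covers counting error only and no difference between cultures. Fibroblast markers were well covered, with all 9 of 9 above a mean of 50, while Efhd1 itself had 10, 5 and 3 reads and the tdTomato reporter 818, 1193 and 2668 normalized counts from softest to stiffest. Other markers moved with stiffness: all 14 of 14 macrophage markers were higher in the stiff than in the soft library, as were 51.1% of all genes tested, 13 of them by at least 0.5, as were 11.8%, and none was at 0. Their summed level was 30888, 38329 and 67134 normalized counts at 0.2, 8 and 64 kPa. None of 6 endothelial markers reached a mean of 50, and 3 of 8 cartilage markers (Col9a1, Matn1 and Cnmd) had no read in any library. Of the other cartilage markers, Col2a1 had 209 normalized counts in the soft and 576 in the stiff library, Sox9 had 467 and 485, Acan had 22 and 64 reads, Col9a2 had 5 and 13 reads, and Matn3 had 1 and 5 reads. Their part in the collagen ratios was not tested. In bulk RNA, fewer cells of a type and less RNA per cell cannot be told apart, and the part that macrophage RNA has in the collagen ratios was not tested.

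The 10 genes together took 0.867%, 1.07% and 1.28% of all reads at 0.2, 8 and 64 kPa. Their summed level was 226617, 284280 and 347627 normalized counts in that order. The stiff library was therefore 1.53-fold above the soft library, a log2 ratio of 0.62 (counting interval 0.61 to 0.63). The first step, soft to intermediate, was 0.33 (0.32 to 0.33) and the step from intermediate to stiff was 0.29 (0.28 to 0.30), so both steps were of similar size. With a trend in transcript length and GC content subtracted, as described further on, the summed ratio was 0.22 for stiff against soft, 0.11 for the first step and 0.12 for the step to stiff.

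Among the 7 genes with a mean of at least 50, all 7 were higher in the stiff than in the soft library, with a median log2 ratio of 0.58 and a range from 0.26 to 1.30. Over all 11873 genes with such a mean the median was 0.0049 and 51.1% were higher. Of the 7, 5 were higher by at least 0.5, as were 11.8% of all genes tested, and 1 was higher by at least 1, as were 3.22%. The 5 became 4 under 3 of 4 other scalings of the libraries, and 1 with the length and GC trend subtracted, when the median was 0.35. None of the 7 was lower by at least 0.5, against 3.77% of all genes. All 7 counting intervals lay above 0, as did 31.3% of those of all genes. A counting interval narrows as reads increase, and this share is not matched for read number. The 7 were also higher at each of the 2 steps taken singly, which held for 30.2% of all genes. With the trend subtracted, 5 of the 7 were above 0 at both steps, Col1a2 and Col5a3 being below 0 from intermediate to stiff. No share of all genes is given under the other scalings or with the trend, which was subtracted for the members only.

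**Figure D1:**
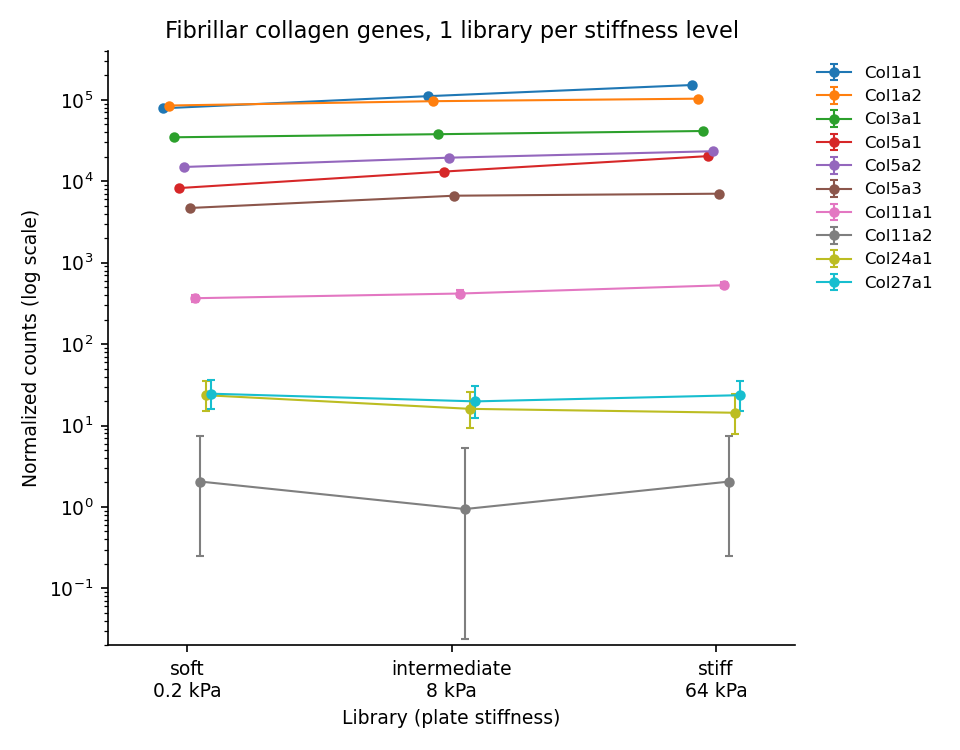
Normalized counts (log axis) of the 10 fibrillar collagen genes in the soft (0.2 kPa), intermediate (8 kPa) and stiff (64 kPa) libraries, 1 point per library, with exact 95% Poisson intervals of the counts that are smaller than the points for the abundant genes. Col1a1 passes Col1a2 between the soft and the intermediate library, and the 3 lowest genes have wide intervals that overlap across libraries.

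Col1a1 encodes the α1(I) chain and is found at chr11:94827050-94843868 (GRCm39, plus strand, 51 exons in its canonical transcript). It stood at 78648, 110715 and 151834 normalized counts at 0.2, 8 and 64 kPa. The stiff library was the highest and the soft library the lowest, and the counting intervals of the 3 values did not overlap. The stiff to soft ratio was 1.93-fold, or 0.95 on the log2 scale (0.94 to 0.96), and 433 of 11873 genes had a higher ratio. It was 0.43 with the length and GC trend subtracted. In order of normalized counts, not divided by length, Col1a1 ranked 21, 12 and 7 among all genes at 0.2, 8 and 64 kPa.

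Col1a2 encodes the α2(I) chain of the same protein and maps to chr6:4504814-4541555 (plus strand, 52 exons). Its values were 85022, 96093 and 103158 at 0.2, 8 and 64 kPa, in the same order as those of Col1a1 but closer together. The stiff to soft log2 ratio was 0.28 (0.27 to 0.29), a 1.21-fold difference, below the 0.95 of its partner and with an interval that did not overlap it. After subtraction of the trend it was 0.0054. Per kb of transcript, the level of Col1a1 was 0.836 times that of Col1a2 in the soft library (exact counting interval 0.828 to 0.844). The same ratio of levels was 1.04 (1.03 to 1.05) in the intermediate and 1.33 (1.320 to 1.341) in the stiff library, so the intervals were apart at each level of stiffness. The absolute ratio depends on the transcript length used: per base of the merged annotated exons its log2 value was 0.83 in the soft library instead of -0.26. The difference in that ratio between libraries does not depend on length.

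Col3a1 encodes the single chain of type III and maps to chr1:45350698-45395840 (plus strand, 51 exons). Its values were 34634, 37796 and 41354 at 0.2, 8 and 64 kPa. It had the lowest stiff to soft ratio of the 7 as deposited, 0.26 on the log2 scale (0.23 to 0.28), and 2775 of 11873 genes were above it. With the trend subtracted it was 0.054, and Col1a2 and Col5a3 were lower. Per kb, the level of Col1a1 was 2.13 times that of Col3a1 at 0.2 kPa, 2.75 times at 8 kPa and 3.44 times at 64 kPa. Type III therefore made up 15.9%, 14.0% and 12.6% of the summed per-kb level of the 10 genes, in order of stiffness, while type I made up 74.5%, 75.2% and 76.0%.

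**Figure D2:**
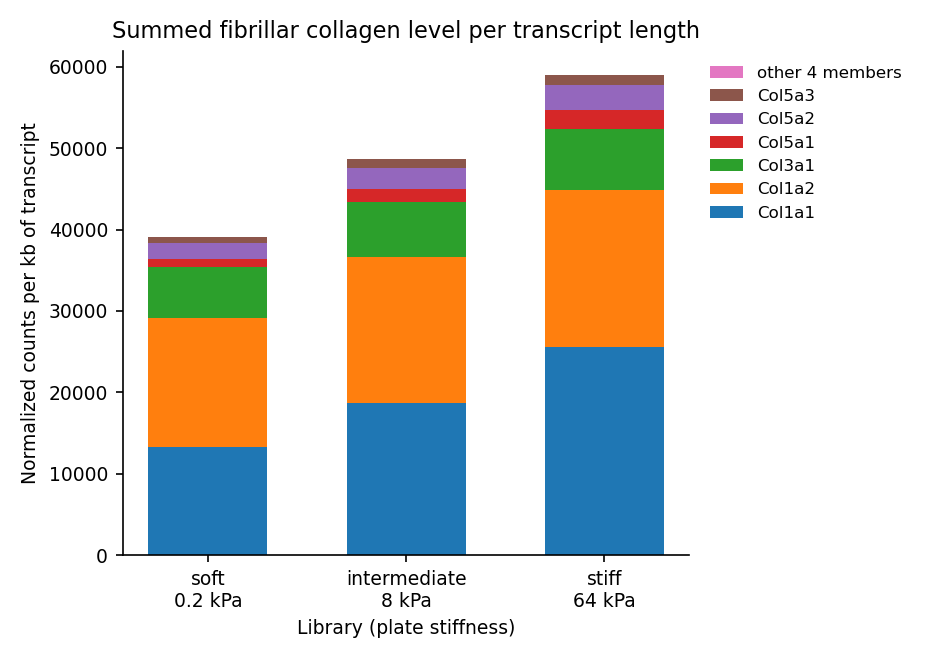
Stacked bars of normalized counts per kb of canonical transcript for the fibrillar collagen genes in each library, starting at 0, with 1 library per bar and no error bar. The summed level is 39123, 48658 and 58996 at 0.2, 8 and 64 kPa, and from 0.2 to 64 kPa the Col1a1 share goes from 33.9% to 43.4% and that of Col1a2 from 40.6% to 32.6%. Per kb of merged exons the shares go from 47.8% to 56.7% and from 26.8% to 19.99%, so Col1a1 is then the larger in each library.

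Among the 7, the type V chains held the highest stiff to soft ratio and the gene whose 2 steps were least alike. Col5a1, which encodes the α1(V) chain found in nearly all type V molecules, maps to chr2:27776397-27929526 (plus strand, 66 exons). It stood at 8242, 13131 and 20334 normalized counts at 0.2, 8 and 64 kPa. The stiff value was 2.47-fold the soft value, 1.30 on the log2 scale with a lower counting bound of 1.27, and 115 of 11873 genes had a higher ratio. Its log2 ratio was 0.54 once the trend was subtracted. As deposited its steps were nearly equal, 0.67 (0.63 to 0.71) up to the intermediate and 0.63 (0.60 to 0.66) from there to the stiff library. With the trend subtracted they were 0.21 and 0.33. In the first step 2 of the 7 genes, Col5a1 and Col5a3, were higher by at least 0.5, beside 3.94% of all genes tested, and none was lower by that much, beside 0.657%, or higher by at least 1, beside 0.16%. Under each of 4 other scalings of the libraries, 1 instead of 2 was higher by 0.5 in this step, and with the length and GC trend subtracted none was. All 7 were higher, as were 53.5% of all genes. In the step from intermediate to stiff Col5a1 alone of the 7 was higher by that much, beside 5.42% of all genes. None was lower by that much, beside 3.42%, or higher by at least 1, beside 0.825%, and all 7 were higher, as were 51.1% of all genes. With the trend subtracted Col5a1 was at 0.33 in this step, none of the 7 was higher by 0.5, and 5 of the 7 were above 0 (Col1a2 was at -0.029 and Col5a3 at -0.19). No share of all genes is given under the other scalings or with the trend subtracted.

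Col5a2 encodes the α2(V) chain and maps to chr1:45412554-45542442 (minus strand, 54 exons). It and Col3a1 point towards each other, with 16.7 kb between their annotated ends. Its values were 14963, 19452 and 23353 at 0.2, 8 and 64 kPa, the stiff library again being the highest. The stiff to soft log2 ratio was 0.64 (0.61 to 0.67), against 0.26 for its neighbour Col3a1. Per kb, the level of Col5a1 was 0.493 times that of Col5a2 at 0.2 kPa, 0.604 times at 8 kPa and 0.779 times at 64 kPa. These levels are not adjusted for the trend. Once it was subtracted, the stiff to soft log2 ratios were close, 0.54 for Col5a1 and 0.48 for Col5a2. In the first step Col5a1 was then the lower, 0.21 against 0.27, and in the step to stiff the higher, 0.33 against 0.23. Which of the pair is higher in the stiff library depends on the length used: per base of the merged exons, a setting chosen after seeing the data, the log2 ratio of Col5a1 to Col5a2 there was 0.16 instead of -0.36.

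Col5a3 encodes the α3(V) chain, which joins α1(V) and α2(V) in a subset of type V molecules, and maps to chr9:20681337-20726418 (minus strand, 67 exons). It stood at 4692, 6639 and 7027 at 0.2, 8 and 64 kPa. The soft library was low and the other two were close together: the first step was 0.50 on the log2 scale (0.45 to 0.55) and the step to stiff was 0.082 (0.034 to 0.13). Of its stiff to soft difference of 0.58 (0.53 to 0.64), 86.0% was present in the intermediate library, compared with 52.0% for Col1a1, 51.6% for Col5a1 and 58.9% for Col5a2. With a trend in transcript length and GC content subtracted, this difference turned to -0.13 and the step to stiff to -0.19. The first step was then 0.078. Per kb, Col5a3 was at 0.778 times the level of Col5a1 at 0.2 kPa, 0.691 times at 8 kPa and 0.472 times at 64 kPa.

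The type XI chains are best known from cartilage, and their levels here were far lower. Col11a1, which encodes α1(XI), maps to chr3:113824134-114014367 (plus strand, 67 exons), and had 366, 418 and 528 normalized counts at 0.2, 8 and 64 kPa. The stiff library was the highest, with a log2 ratio to soft of 0.53 (0.33 to 0.73), or 0.35 with the trend subtracted. The interval of the first step, -0.014 to 0.40 around 0.19, included 0, so that step was not detectable at this depth, and the step to stiff was 0.34 (0.15 to 0.53). Col11a1 was thus the exception when counting intervals above 0 were counted in the first step: 6 of the 7 genes passed, beside 21.8% of all genes, against 7 of 7 and 26.3% from intermediate to stiff. These shares are not matched for read number. Col11a2, which encodes α2(XI), maps to chr17:34258108-34285664 (plus strand) and had 2, 1 and 2 reads, at or under the 3 reads that a count of 0 allows, so no ratio is given.

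Col24a1 and Col27a1, the more distant members, were also near the limit of detection. Col24a1, at chr3:144998233-145257766 (plus strand), had 23, 17 and 14 reads at 0.2, 8 and 64 kPa. Its stiff to soft log2 ratio was -0.68, with counting bounds of -1.79 and 0.30, so it was the only member lower by at least 0.5 but no difference was detectable at this depth. Col27a1, at chr4:63132241-63253228 (plus strand), had 24, 21 and 23 reads, with a log2 ratio of -0.059 (-0.95 to 0.83). Col27a1 hosts the miRNA gene Mir455 in its introns, for which no read was counted.

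Ordered per kb of transcript in the stiff library, the genes ran from Col1a1 at 25604 normalized counts per kb through Col1a2 at 19249.5, Col3a1 at 7432, Col5a2 at 3092, Col5a1 at 2407, Col5a3 at 1136 and Col11a1 at 68.4. Below these came Col27a1 at 3.10 and Col24a1 at 2.01, whose intervals overlapped in every library, and Col11a2 at 0.323. The order was the same in the soft library except that Col1a2, at 15865, stood above Col1a1, at 13263, and that Col24a1, at 3.30, stood at the level of Col27a1, at 3.23. Per kb of the merged exons, Col1a1 was above Col1a2 in every library, Col5a1 above Col5a2 in the stiff library, and Col24a1 above Col27a1 in every library. The type I chains held 76.0% of the summed per-kb level in the stiff library, and types XXIV and XXVII together 0.00866%.

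**Figure D3:**
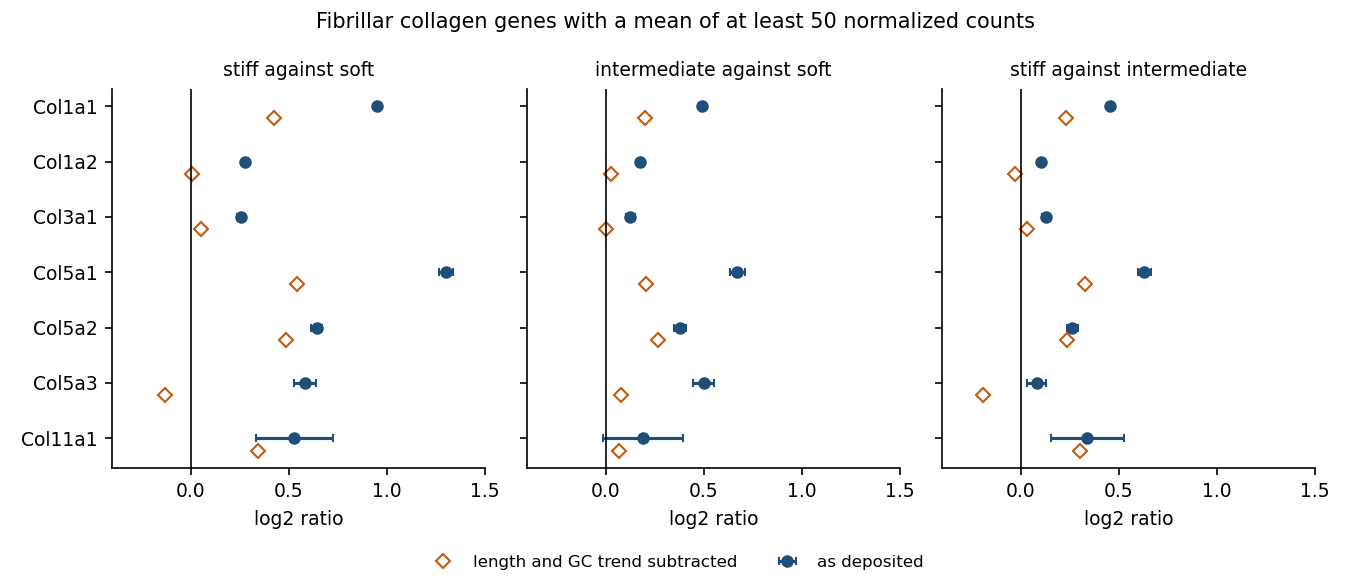
Log2 ratios of the 7 fibrillar collagen genes with a mean of at least 50 in the 3 comparisons, as deposited (filled points with exact 95% counting intervals) and after subtraction of a trend with transcript length and GC content (open diamonds). All filled points lie above 0, and the diamonds of Col1a2 and Col3a1 lie near 0 while those of Col5a3 lie below 0 in the stiff against soft and stiff against intermediate panels.

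Length and GC content of the transcripts moved with the ratios across all genes, and the canonical transcripts of the 10 genes were 5359 to 8446 nt long with a GC content from 47.8% to 62.7%. For the ratio of stiff to soft, Spearman's correlation was 0.26 with length and 0.26 with GC content over 11655 genes of these libraries with both values. A local trend fitted to the other genes, with all collagens left out, was 0.76 for a transcript with the length and GC content of Col5a1, 0.71 for Col5a3, 0.52 for Col1a1, 0.27 for Col1a2, 0.20 for Col3a1, 0.18 for Col11a1 and 0.16 for Col5a2. With the trend subtracted, the stiff to soft log2 ratio was 0.54 for Col5a1, 0.48 for Col5a2, 0.43 for Col1a1 and 0.35 for Col11a1. It was 0.054 for Col3a1 and 0.0054 for Col1a2, and for Col5a3 the sign turned, to -0.13. The median of the 7 was then 0.35 instead of 0.58, 6 of the 7 were above 0, and 1 instead of 5 was higher by at least 0.5. No share of all genes is given beside these counts, since the trend was subtracted for the members only. The difference between the type I chains remained in the same direction, 0.43 for Col1a1 against 0.0054 for Col1a2. Whether the trend comes from the libraries or from the cells was not tested.

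**Figure D4:**
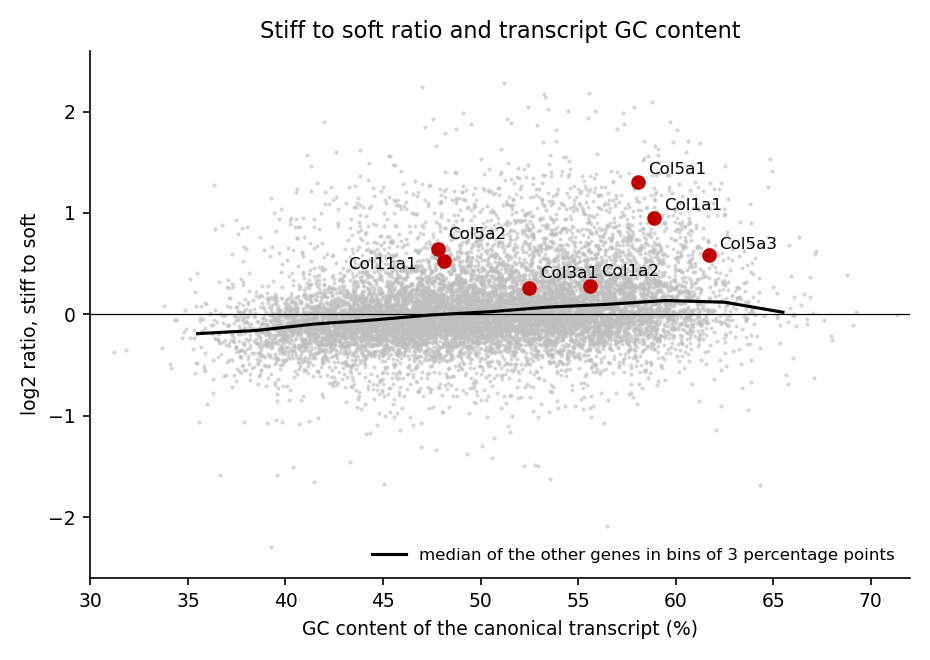
Stiff to soft log2 ratio against GC content of the canonical transcript (percent), 1 point per gene averaging at least 50 normalized counts (grey), with the 7 fibrillar collagen genes in red and the median of bins of 3 percentage points with at least 20 genes as a line. The vertical axis stops at 2.6 in each direction and 6 genes lie beyond the axes, while all 7 collagens lie above the line. The line takes no account of transcript length. With the length and GC trend subtracted, Col5a3 is at -0.13, Col1a2 at 0.0054 and Col3a1 at 0.054.

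The other genes of collagen making, taken from lists of 8 kinds, had stiff to soft medians between 0.021 and 0.52, beside 0.58 for the collagens. The collagen median was 0.35 with the length and GC trend subtracted, and the lists were not adjusted for that trend, so no order between them is drawn. Of 17 tested enzymes and chaperones that modify procollagen in the endoplasmic reticulum, 1 was higher in the stiff than in the soft library by at least 0.5 and none was lower by that much, beside 11.8% and 3.77% of all genes tested, with a median of 0.11. The highest was P3h2, a prolyl 3-hydroxylase, at 0.78, on 38, 71 and 66 reads in order of stiffness, and the lowest was Fkbp14, a prolyl isomerase, at -0.25. Serpinh1, the collagen chaperone HSP47, had 48712, 49112 and 51385 normalized counts in order of stiffness, a log2 ratio of 0.077. P4ha1 and P4hb, subunits of the prolyl 4-hydroxylase that stabilises the helix, were at 0.016 and -0.10.

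Of 11 genes of procollagen export, 1 was higher by at least 0.5 and none lower, near the 11.8% and 3.77% of all genes, with a median of 0.13. That gene was Creb3l1, a transcription factor of the secretory pathway that also acts on type I collagen genes, at 0.60, with 1392, 1983 and 2104 normalized counts. Mia3, the TANGO1 receptor that loads procollagen into carriers, was at 0.32, and Sar1b, a COPII GTPase, was the lowest at -0.23. Of 7 tested genes of procollagen processing, 2 were higher by at least 0.5 and none lower, beside the same shares of all genes, with a median of 0.27. Adamts2, the main N-propeptidase of types I and III, was at 0.74, with 1205, 1488 and 2010 normalized counts, and Furin, a proprotein convertase that acts on type V chains, was at 0.61. Bmp1, the C-propeptidase, was at 0.27, and Tll1, a related protease, was the lowest at -0.37.

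All 5 lysyl oxidases, which crosslink collagen outside the cell, were higher in the stiff library, beside 51.1% of all genes, 3 of them by at least 0.5, beside 11.8%, with a median of 0.52. Loxl2 had the highest ratio at 0.66 and Loxl3 the lowest at 0.21, and Lox itself stood at 129253, 142120 and 161274 normalized counts. Of 22 tested fibril partners, 6 were higher and 2 lower by at least 0.5, beside 11.8% and 3.77% of all genes, with a median of 0.34. Fn1, the fibronectin on whose matrix collagen fibrils are laid down, was the highest at 1.08, with 28877, 46177 and 61089 normalized counts, and Thbs2, a matricellular protein, was the lowest at -0.62. Dcn and Lum, small proteoglycans that coat type I fibrils, were at -0.44 and -0.36, while Fmod, another such proteoglycan, was at 0.48.

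Of 9 tested collagen receptors, 3 were higher by at least 0.5 and none lower, beside 11.8% and 3.77% of all genes, with a median of 0.37. Lair1, a collagen receptor of immune cells, was at 1.06, from 97.4 normalized counts in the soft to 204 in the stiff library, beside the macrophage markers given above. Itga11, an integrin chain of fibroblasts that binds type I collagen, was at 0.99, with 669, 979 and 1329 normalized counts at 0.2, 8 and 64 kPa. Adgrg1, a receptor for type III collagen, was the lowest at -0.29, and Ddr2, a tyrosine kinase activated by fibrillar collagen, was at -0.092. Of 7 tested collagen degrading enzymes, 1 was higher and 2 were lower by at least 0.5, beside the same shares of all genes, with a median of 0.021. Mmp13, a collagenase, was the lowest at -1.02, with 18731, 20166 and 9233 normalized counts, and Mmp8, another collagenase, was the highest at 0.78.

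Of 30 regulators of collagen genes, 5 were higher and 3 lower by at least 0.5, beside 11.8% and 3.77% of all genes, with a median of 0.041. Ccn2, a matricellular factor, was the highest at 1.21, with 23626, 22575 and 54585 normalized counts, and Sp7, a bone transcription factor, the lowest at -0.91. Tgfb1 was at 0.028 and Tgfb3, another ligand of the same receptors, at 0.68. Ccn2, like the summed myofibroblast markers, was highest in the stiff library, and its soft and intermediate values were close together. The 6 contractile myofibroblast markers summed to 14791, 19161 and 65820 normalized counts, with median log2 ratios of 0.26 in the first step and 1.85 from intermediate to stiff, and their part in the collagen ratios was not tested. The 7 collagens had medians of 0.38 and 0.26 in those steps. After subtraction of the trend in transcript length and GC content these collagen medians were 0.078 and 0.23, so the second was then the larger. The medians of the myofibroblast markers were not adjusted for this trend. Both steps share the intermediate library, so the values are set side by side only.

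**Figure D5:**
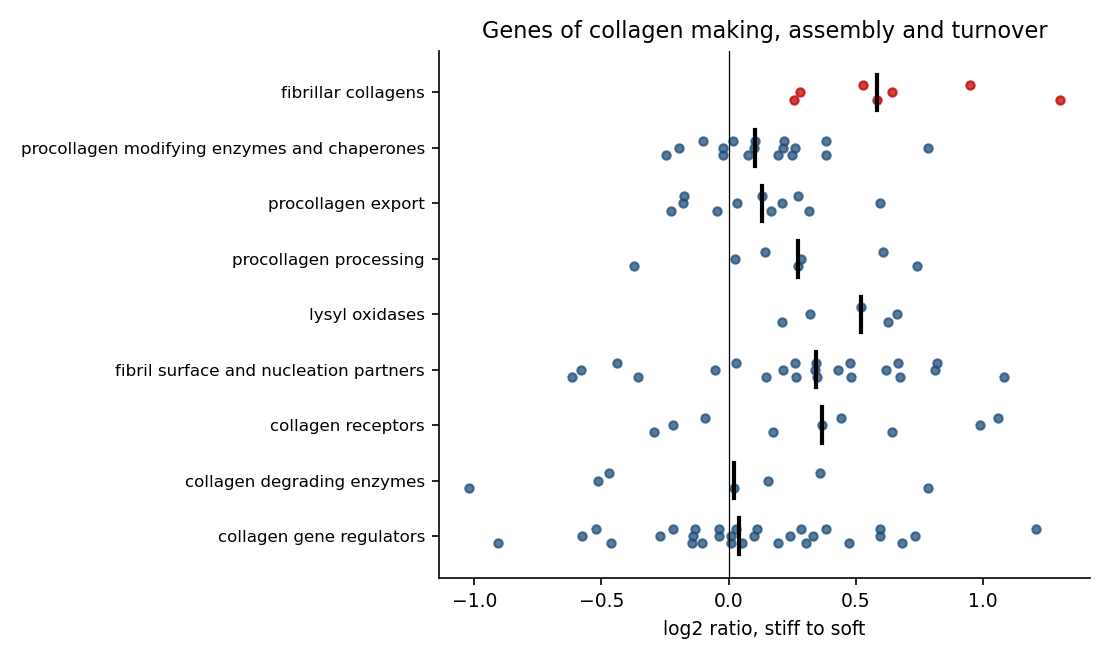
Stiff to soft log2 ratios of the fibrillar collagen genes (red) and of the genes in 8 lists of collagen making, assembly and turnover (blue), 1 point per gene averaging at least 50 normalized counts, spread vertically for legibility, with black bars at the medians. The collagens have a median of 0.58, the lysyl oxidases of 0.52 and the procollagen modifying enzymes and chaperones of 0.11.

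The genes with the most similar pattern were sought over the 3 libraries among 7219 named genes other than collagens with a mean of at least 500. Likeness was the distance between the pairs of step ratios, on the log2 scale. Nearest to Col1a1 were Phf2, Arid5b and Nolc1, at distances of 0.025, 0.031 and 0.032. Nearest to Col3a1 were Erlin1, Sh3bgrl3 and Zmat3, at 0.0049, 0.0071 and 0.0073. With 3 libraries the pattern has only 2 free values.

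Counting could touch a few of the values. Annotated antisense transcripts overlap exons of Col5a1, over 99 bases with 2810430I11Rik, which had 58, 85 and 20 reads, and over 113 bases with Gm13372, which had 1, 4 and 2 reads. Other annotated antisense transcripts, not analysed here, overlap exons of Col1a2, Col3a1, Col11a1 and Col27a1. On the same strand, the miRNA gene Gm54819 shares 141 exon bases with Col3a1 and had no read in any library. The strand setting of the counting is not given in the sources used here. Col5a1 itself had 8040, 13929 and 19828 reads.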

How the data were processed

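Stranded poly(A) libraries were made with the TruSeq Stranded mRNA kit from RNA of sorted and cultured mouse synovial cells, per the labels' protocols. The authors deposited a signal for each gene, its read count scaled by the size factor of the library, which their file names call DESeq2 normalized counts. The submitters' processing notes list bcl2fastq 2.20.0, STAR 2.7.9a, featureCounts of Subread 2.0.1, DESeq2 1.34.0 and GRCm39, with no parameters. The annotation and strand setting are not given in the sources used here. The 3 deposited files hold 1 identical table of 56833 genes, 33275 of them without a read, with a column named after each sample. All values were whole multiples of the column's smallest positive value (100% within 1e-06), which recovered whole reads. From softest to stiffest, 1 read was worth 1.03, 0.943 and 1.03 normalized counts. No count test was run on these reads, since it needs replicates.

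Log2 ratios used a pseudocount of 1, which understates changes of low genes. All 11873 genes with a mean of at least 50 served as background, and thresholds were 0.5 and 1. Intervals are exact (Clopper-Pearson for ratios, Poisson for levels) at 95%. Amplified reads are not independent molecules, so they cover counting error only. Levels per kb and the length and GC trend (a robust linear fit around each gene, over its 300 nearest) used canonical GENCODE vM39 transcripts of GRCm39, matched by symbol for 98.2% of those genes. Named genes are the members, in each list the highest and lowest with up to 3 more of clear role, and the 3 genes nearest in pattern to Col1a1 and Col3a1. The members and lists were chosen with earlier results of these data known. Alternatives were other pseudocounts, filters, thresholds and 4 scalings, and the trend. The computations were tested on simulated data. Tools were matplotlib 3.10.9, scipy 1.17.1, pandas 2.3.3 and numpy 2.4.6 under Python 3.11.15.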

Additional observations from a re-analysis of the deposited data

How the results depend on the processing

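With 1 library per level no replicate could be left out. No paired analysis was possible because each level has 1 library. Of 147 values of the 21 ratios of the 7 well-covered genes under the alternatives, 144 kept their sign. The exceptions, each after subtraction of the trend, were Col5a3 in stiff against soft (-0.13) and stiff against intermediate (-0.19) and Col1a2 in stiff against intermediate (-0.029). A pseudocount cannot turn a sign, and no scaling shifted ratios by more than 0.065, less than the smallest of these ratios, 0.082. Only subtraction of the trend was therefore able to turn a sign.
The summed log2 ratio of stiff to soft (0.62) was 0.56 scaled to total reads, 0.57 to the upper quartile, 0.55 to total reads without mitochondrial, ribosomal protein and collagen genes, and 0.22 with the trend subtracted. The median (0.58) was 0.53, 0.52 and 0.35 under total reads, the reduced total and the trend. For intermediate to soft the sum (0.33) was 0.31 scaled to total reads, 0.29 to the upper quartile, 0.32 to the median ratio, 0.30 to the reduced total and 0.11 with the trend subtracted, and the median (0.38) was 0.34 under the upper quartile and 0.078 under the trend. For stiff to intermediate the sum (0.29) was 0.25, 0.28, 0.25 and 0.12 under total reads, upper quartile, reduced total and trend. The shift of stiff to soft by the scalings was at most 0.065 in size.
Over all 10 genes, 5 were higher by at least 0.5 between stiff and soft, 7 at a threshold of 0.25, 4 scaled to total reads, the upper quartile or the reduced total, 1 at a threshold of 1 and 1 with the trend subtracted. Lower by 0.5 were 1, 0 with a pseudocount of 10 and 3 with the trend subtracted (Col11a2, Col24a1 and Col27a1). Between intermediate and soft 2 were higher: 1 with a pseudocount of 10 and under each of the 4 scalings, 0 with the trend subtracted and at a threshold of 1, and 4 at 0.25, and 2 were lower against 0 with a pseudocount of 10. Between stiff and intermediate 2 were higher, Col5a1 and, on 2 reads against 1, Col11a2: 1 with a pseudocount of 10, 0 with the trend subtracted and at a threshold of 1, and 5 at 0.25. The cause of the changes with the trend was not tested. A pseudocount of 10 draws the ratios of low genes towards 0, and another scaling shifts all ratios alike. No share of all genes is given at 0.25, with other pseudocounts or scalings, or with the trend. These counts therefore show only how the members depend on the setting.
The share of all genes past 0.5 was 15.6% for stiff against soft and 38.5% without a filter. It was 4.6% for intermediate against soft, 9.56% with a mean of at least 10, 2.78% with at least 200 and 31.9% without a filter. It was 8.84% for stiff against intermediate, 14% with at least 10 and 34.5% without a filter. The log2 ratio of Col1a1 to Col1a2 per base (-0.26, 0.058 and 0.41 in the soft, intermediate and stiff libraries) was -0.24, 0.079 and 0.43 with the longest transcript. With merged exons, an alternative chosen after seeing the data, it was 0.83, 1.15 and 1.50, reversed in the soft library, and that of Col5a1 to Col5a2 was reversed in the stiff library, 0.16 instead of -0.36. Depth limits any statement on Col11a2, Col24a1 and Col27a1.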

Other observations

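Col2a1, the type II collagen of cartilage, is a fibrillar collagen outside the 10 genes described and was named after its values were seen. Its values were 209, 330 and 576 normalized counts at 0.2, 8 and 64 kPa, a stiff to soft log2 ratio of 1.46, above that of every member described in the report. Of the other cartilage markers, Acan had 22, 53 and 64 reads, Col9a2 had 5, 10 and 13 reads, Matn3 had 1, 3 and 5 reads, Sox9 had 467, 715 and 485 normalized counts, and Col9a1, Matn1 and Cnmd had no read in any library, which allows up to 3 reads each.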
